A study of Homo sapiens with 2 samples.

Results

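The broad NUDT21 regions described here are stretches of chromatin at which at least 1 peak was 10 kb or wider. They were chosen by peak width alone: every peak on chromosomes 1 to 22, X and Y of at least 10000 bp in either replicate was taken, and overlapping ones were merged. Replicate 1 held 431 such peaks among 92722 (0.465% of its peaks) and replicate 2 held 161 among 66671 (0.241%). Merging gave 444 broad regions, out of 99495 merged regions over all peaks, with a summed length of 6.93 Mb. Width is what selected these regions, so widths and every other value of the same peak calls are given as a description, with no test.

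NUDT21 was profiled by CUT&Tag in 2 replicates of J.gamma1. This established human line, a Jurkat derivative, comes from a lymphoblastic leukemia of T cells (T-ALL) and lacks the signalling enzyme PLCG1. The labels name no treatment or genetic change, and the methods of the study call the replicates biological. Both formed 1 group, with no control sample analysed here. With 1 group of 2 samples no test between conditions was possible, and regions along a genome are not independent replicates.

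NUDT21 is the small subunit of cleavage factor I, which binds UGUA elements in nascent transcripts and steers the choice of polyadenylation site. Because it acts on RNA that is still being made, it can be found on chromatin over transcribed genes as well as at their ends. In CUT&Tag an antibody tethers a transposase to the protein, and the DNA cut around it is sequenced, so a peak marks cut DNA near the target and not the RNA element itself. Peak callers set for narrow signal report an interval for each stretch above background and join stretches across short gaps. The smallest gap between neighbouring peaks was 293 bp in replicate 1 and 324 bp in replicate 2, so a broad peak can hold shorter breaks. In a bulk profile, a strong signal in few cells and a weaker one in all cells cannot be told apart.

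The DNA at the replicate 1 summits of the 6 longest regions that were broad in both replicates is shown first. These are the points of highest fold in replicate 1 of the runs described below. Each window holds 121 bases centred on the replicate 1 summit, on the plus strand of hg38, with CpG dinucleotides in capitals.
PIEZO1 region, chr16:88781492-88781612, intron: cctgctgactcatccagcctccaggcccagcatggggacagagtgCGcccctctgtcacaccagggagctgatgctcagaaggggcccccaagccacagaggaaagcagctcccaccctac
GSE1 region, chr16:85612007-85612127, intron: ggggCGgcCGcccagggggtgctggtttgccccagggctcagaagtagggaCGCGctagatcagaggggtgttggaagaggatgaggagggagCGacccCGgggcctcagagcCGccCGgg
WDR90 to WDR24 region, chr16:680052-680172, between genes: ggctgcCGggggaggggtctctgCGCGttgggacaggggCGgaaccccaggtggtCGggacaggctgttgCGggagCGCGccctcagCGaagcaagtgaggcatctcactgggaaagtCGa
BAHCC1 region, chr17:81428516-81428636, intron: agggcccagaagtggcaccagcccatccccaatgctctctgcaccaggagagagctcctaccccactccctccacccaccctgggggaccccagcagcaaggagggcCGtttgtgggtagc
NOTCH1 region, chr9:136535765-136535885, intron: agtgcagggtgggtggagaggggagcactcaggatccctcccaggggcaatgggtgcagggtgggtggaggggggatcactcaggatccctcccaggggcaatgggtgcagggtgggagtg
GPR17 region, chr2:127647508-127647628, intron: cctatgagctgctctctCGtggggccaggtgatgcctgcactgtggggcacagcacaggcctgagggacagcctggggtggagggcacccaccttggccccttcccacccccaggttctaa
GC content of these windows lay between 64.5% and 71.1%. The GSE1 window held 8 CpG and the WDR90 to WDR24 window 10. The windows at PIEZO1, BAHCC1 and GPR17 held 1 CpG each and the NOTCH1 window held 0. The replicate 1 summits at GSE1, WDR90 to WDR24 and GPR17 lay within 1 kb of an annotated transcript start, at 658, 112 and 549 bp. In replicate 2 the summits of highest fold lay 78 and 40 bp from a start at WDR90 to WDR24 and GPR17. Those at PIEZO1 and GSE1 lay 960 and 2303 bp away, and those at BAHCC1 and NOTCH1 14957 and 6124 bp. TGTA, the DNA form of UGUA, was absent from both strands of all 6 windows, which says only that these letters were not in these bases.

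Most broad regions reached the width in 1 replicate and were broken into shorter peaks in the other. Of the 444 regions, 138 were broad in both replicates, 290 in replicate 1 only and 16 in replicate 2 only. Among the broad peaks of replicate 2, 145 of 161 overlapped a broad peak of replicate 1 (90.1%, Wilson 95% interval 84.5 to 93.8). In the other direction 141 of 431 did (32.7%, 28.5 to 37.3). These intervals cover counting error only. Over all its peaks, replicate 1 had a median of 30 recovered fragments at a summit against 20 in replicate 2. The part of this difference in the width was not tested.

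Broad peaks had a median width of 13683 bp in replicate 1 (10010 to 57439 bp) and 12157 bp in replicate 2 (10000 to 38652 bp). The median over all peaks was 630 bp and 649 bp. At least 20 kb was reached by 67 broad peaks of replicate 1 and 14 of replicate 2. Broad peaks made up 6.79% of all bases under peaks in replicate 1 and 3.30% in replicate 2.

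**Figure D1:**
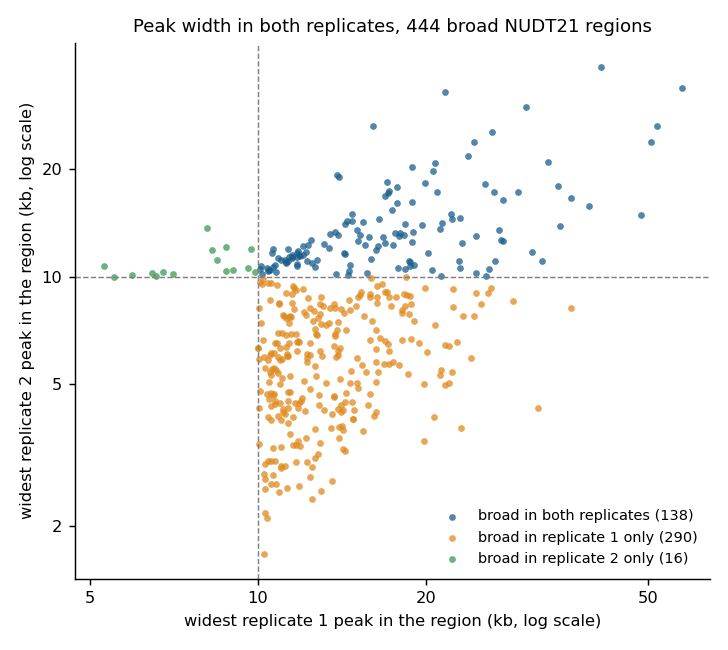
Width of the widest replicate 1 peak (x axis, kb, log scale) against the widest replicate 2 peak (y axis, kb, log scale) in each of the 444 broad regions; each point is 1 region and dashed lines mark 10 kb. The 290 regions broad in replicate 1 only spread well below the horizontal line, while the 16 broad in replicate 2 only lie just above it.

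The stretches called broad in 1 replicate were nevertheless largely under peaks of the other. Peaks of replicate 2 covered a median of 89.2% of a replicate 1 broad peak, and 430 of 431 were covered over at least 50% of their length, beside 46.8% of all replicate 1 peaks. Peaks of replicate 1 covered a median of 100% of a replicate 2 broad peak, and 161 of 161 passed 50%, beside 80.6% of all replicate 2 peaks. By width class of replicate 1, the median share covered by replicate 2 was 0% under 1 kb, 62.0% at 1 to 2 kb, 73.1% at 2 to 5 kb, 82.9% at 5 to 10 kb and 89.2% at 10 kb or more. No broad peak of either replicate was without a peak of the other. In the 290 regions broad in replicate 1 only, replicate 2 had a median of 4 peaks, the widest with a median of 5927.5 bp. The longest stretch of such a region without a replicate 2 peak, region edges included, had a median of 860.5 bp.

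Signal at the summit was also higher in broad peaks than over all peaks. The fold enrichment over local background, deposited for each summit, had a median of 9.29 in broad peaks of replicate 1 and 9.53 in those of replicate 2, against 3.95 and 4.23 over all peaks. In peaks of 5 to 10 kb the median fold was 7.20 and 7.36. Broad peaks of low fold existed as well, with a lowest value of 2.86 in replicate 1 and 4.94 in replicate 2. The median number of recovered fragments at the summit of a broad peak was 86 and 53, against 30 and 20 over all peaks. The recovered control level, the background that the fold is measured against, was 8.0 and 4.69 in broad peaks and 6.0 and 3.9 over all peaks. The control level therefore moved with width too, and its part in the width was not tested.

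Peaks just inside and just outside the width threshold all lay at protein-coding genes. The narrowest broad peak of replicate 1 (chr3:52520371-52530380, 10010 bp, fold 3.49) lay over STAB1, a scavenger receptor, and NT5DC2. The widest replicate 1 peak left out (chr20:57660889-57670883, 9995 bp, fold 4.98) lay at PMEPA1, a target of TGF-beta signalling. In replicate 2 the narrowest broad peak (chr11:65710907-65720906, 10000 bp, fold 8.98) spanned KAT5, a histone acetyltransferase, and RNASEH2C. The widest replicate 2 peak left out (chr16:2230493-2240482, 9990 bp, fold 14) held DNASE1L2 whole and the ends of E4F1 and ECI1.

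Broad regions lay mostly over gene bodies. Of their bases, 87.9% were inside an annotated gene of any kind in GENCODE 44, and 84.5% inside a protein-coding gene. The share was 87.8% in replicate 1 and 90.6% in replicate 2 (mean 89.2% ± 1.95, SD, n = 2). Over all peaks it was 79.3% and 80.4%, in peaks of 5 to 10 kb 83.8% and 87.1%, and over the genome without gaps 60.5%. It was 90.3% in regions broad in both replicates, 86.1% in those of replicate 1 only and 92.2% in those of replicate 2 only. Exons took 35.1% of the bases of broad regions, against 23.9% and 25.2% of the bases of all peaks and 5.33% of the genome. In peaks of 5 to 10 kb the exon share was 31.1% and 35.3%.

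Single regions varied around this share. In 179 of the 444 regions every base lay over a gene body, and in 25 less than 50% did. Counting protein-coding genes alone, 132 regions (29.7%) lay wholly inside 1 gene, and 31 of those were broad in both replicates. At the other extreme, 12 regions overlapped no protein-coding gene, and all 12 were broad in replicate 1 only.

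Gene starts, counted once per gene at its outermost annotated position, were spanned by about as many regions as not. A start of any annotated transcript lay inside 94.6% of regions. At least 1 protein-coding start lay inside 235 of 444 regions (52.9%, Wilson 95% interval 48.3 to 57.5), at least 2 inside 104 and at least 3 inside 38. Wider intervals span more starts by their width alone, so these shares are a description. Per 10 kb of broad peak there were 0.570 starts in replicate 1 and 0.564 in replicate 2. Peaks of 5 to 10 kb held 0.600 and 0.542 per 10 kb, and peaks under 1 kb held 1.01 and 1.08. In all, 395 protein-coding genes started inside a broad region (1.97% of the 20033 annotated), 155 of them in regions broad in both replicates. Replicate 1 alone gave 381 such genes and replicate 2 alone gave 125. The largest number in 1 region was 6, and the region was the WDR90 to WDR24 stretch. Of the 395 genes, 227 lay wholly inside their region. They were short: the median length was 7653 bp, against 27471 bp over all protein-coding genes and 21798 bp over the 6372 genes whose start lay in a peak of each replicate. Short genes are more often swallowed whole by a wide interval, and no test of length was made.

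Gene ends outnumbered gene starts under broad peaks, and the balance ran the other way in narrow ones. Broad regions held 395 starts and 526 ends of protein-coding genes, or 0.751 starts per end. Each gene counted once, at its outermost annotated start and end, so transcript starts inside a gene were left out. In replicate 1 the ratio was 9.39 in peaks under 1 kb, 7.19 at 1 to 2 kb, 2.18 at 2 to 5 kb, 0.854 at 5 to 10 kb and 0.750 at 10 kb or more. Replicate 2 gave 7.51, 4.07, 1.35, 0.691 and 0.598 for the same classes. Both replicates thus ran in the same order over the 5 classes. Per 10 kb of broad peak there were 0.760 ends in replicate 1 and 0.944 in replicate 2, against 0.107 and 0.143 in peaks under 1 kb. Starts per 10 kb were fewer in broad peaks, 0.570 and 0.564, against 1.01 and 1.08 in peaks under 1 kb.

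Seen by region, 191 held both a start and an end of a protein-coding gene, 86 an end without a start, 44 a start without an end and 123 neither. Neighbouring genes that point at each other, so that both ends meet, had both ends inside a broad region in 121 of 4876 pairs (2.48%). Neighbours that point away from each other had both starts inside in 55 of 4874 pairs (1.13%). The convergent pairs lay in 117 regions and the divergent pairs in 54. No test of the difference was made, since neighbouring pairs share regions.

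**Figure D2:**
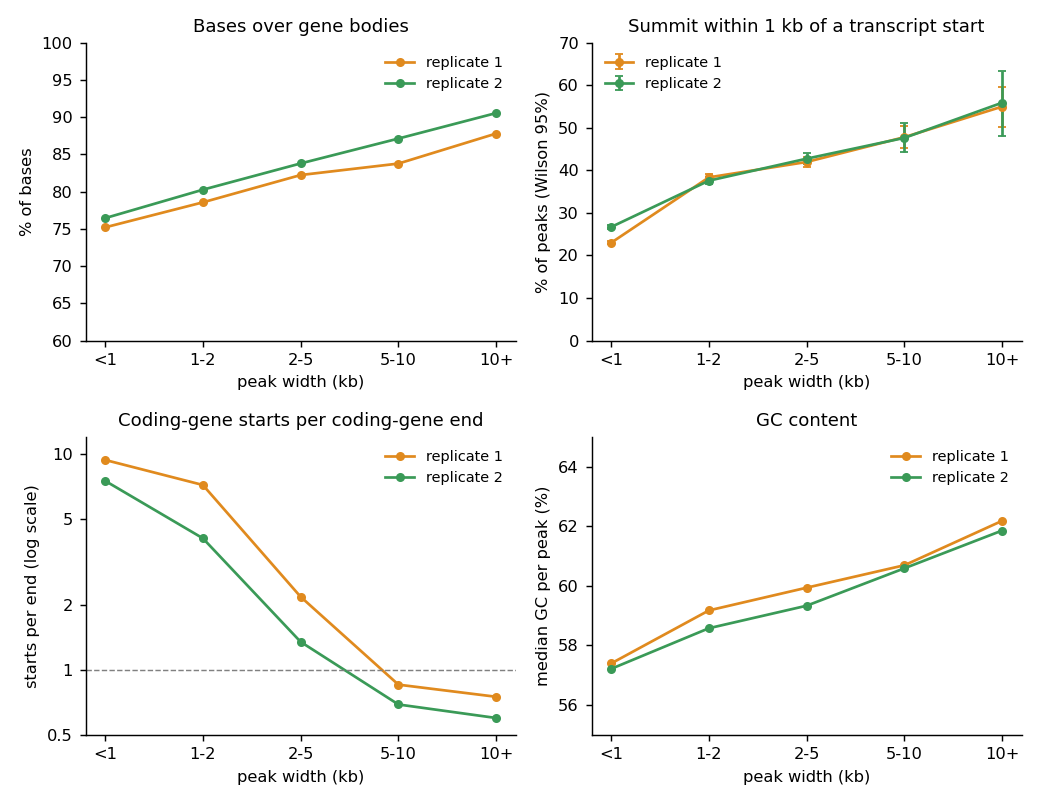
Share of bases over gene bodies, share of summits within 1 kb of a transcript start with Wilson 95% intervals, starts per end of protein-coding genes (log scale) and median GC content, by peak width class (x axis, kb) in replicate 1 and replicate 2. Starts per end falls below 1 from 5 kb upward in both replicates, while the other 3 measures rise with width.

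Along the gene, broad peaks covered the end more fully than the start. For protein-coding genes of at least 2 kb that a broad peak overlapped, each gene was divided into 10 equal parts and the share of bases under broad peaks was averaged over genes. Across the 679 genes of replicate 1 it went from 51.8% in the first part to 71.4% in the last. Across the 282 genes of replicate 2 it went from 40.5% to 70.7%. Peaks under 2 kb had the reverse shape over the genes they overlapped, with 21.1% in the first part and 10.2% in the last in replicate 1, and 19.7% and 11% in replicate 2.

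Peaks of any width in the replicate that had not been used to choose the genes also covered the last part more than the first. That replicate largely covered the broad peaks that chose the genes, so its shape is not independent of the choice. Over the 679 genes picked by broad peaks of replicate 1, replicate 2 peaks covered 68.4% of the first part and 80.0% of the last. Over all 18957 protein-coding genes of at least 2 kb, replicate 2 peaks covered 18.3% and 13.9%. Over the 282 genes picked by replicate 2, replicate 1 peaks covered 84.2% and 93.3%, against 26.7% and 18.0% over all genes. Genes wholly inside a broad peak showed less of this. In 191 such genes of replicate 1, replicate 2 peaks covered 84.2% of the first part, 94.3% of the ninth and 90.2% of the last, and in 62 of replicate 2 replicate 1 peaks covered 99.7% and 100%. Genes are not independent of their neighbours, and no test was made.

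**Figure D3:**
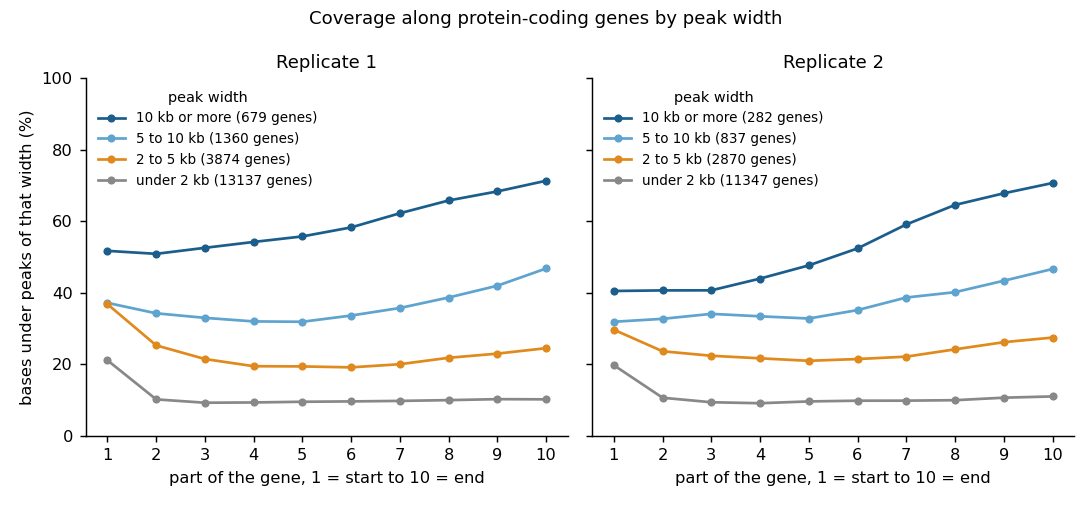
Mean share of bases under peaks (y axis, %) in each of 10 equal parts of a protein-coding gene from start to end (x axis), by peak width class and replicate, over genes that a peak of the class overlaps. Peaks of 10 kb or more rise toward the gene end, to 71.4% in replicate 1 and 70.7% in replicate 2, and peaks under 2 kb are highest in the first part.

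The highest point of a broad peak was nevertheless often near a transcript start. The summit lay within 1 kb of a start of any annotated transcript in 237 of 431 broad peaks of replicate 1 (55%, 50.3 to 59.6) and in 90 of 161 of replicate 2 (55.9%, 48.2 to 63.3). Over all peaks the share was 28.0% and 30.4%, and in peaks of 5 to 10 kb 47.8% and 47.6%. Some broad regions hold many annotated transcript starts, such as 97 in the WDR90 to WDR24 region. Whether summits lay nearer to starts than other bases of the same peaks was not tested. Counted to protein-coding gene starts alone, the share in broad peaks was 24.1% and 24.8%, against 10.7% and 11.4% of all peaks. Within 1 kb of a protein-coding gene end the share in broad peaks was 15.1% and 21.1%, against 4.50% and 5.35% of all peaks. Of the broad peak summits not within 1 kb of a transcript start, 123 and 41 were intronic, 39 and 16 exonic and 32 and 14 intergenic.

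Among the long regions broad in both replicates, 4 lay mainly over a single long gene. PIEZO1, a mechanosensitive ion channel gene, lay under the longest region (chr16:88729097-88787085, 57989 bp), which covered 80.3% of the gene including its start. There replicate 1 had 1 peak of 57439 bp with fold 10.8, and replicate 2 had 5 peaks, the widest 33703 bp with fold 10.6. Peaks of replicate 2 covered 95.9% of the region.

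NOTCH1, the receptor gene that is the most frequent target of activating mutations in T-ALL, lay under chr9:136502955-136551493 (48539 bp), which covered 83.5% of it from the start onward. Replicate 1 had a single peak with fold 14.4 and 174 fragments at the summit. Replicate 2 had 7 peaks, the widest 14878 bp with fold 7.31, and they covered 91.6% of the region. The longest gap between them measured 1082 bp.

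GSE1, which encodes a subunit of a histone deacetylase co-repressor complex, was crossed by chr16:85604930-85657672 (52743 bp), which lay in the last part of the gene, from 85.9% to 96.3% of its length. This region joined 3 broad peaks of replicate 1, of 21664, 18828 and 11441 bp, through a replicate 2 peak of 32947 bp. BAHCC1, which encodes a reader of a repressive histone mark, had chr17:81425992-81476678 (50687 bp) over its final 56.9% and beyond the gene end. Neither region held a protein-coding gene start, counted once per gene at its outermost position. They did hold annotated transcript starts, 5 in the GSE1 region and 6 in the BAHCC1 region.

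Other long regions spanned rows of short genes. The WDR90 to WDR24 region (chr16:640334-692206, 51873 bp) held the whole of WDR90, RHOT2, RHBDL1, STUB1, JMJD8 and WDR24 and the end of MCRIP2. STUB1 encodes a ubiquitin ligase that works with heat shock chaperones, RHOT2 a mitochondrial GTPase and WDR24 a regulator of nutrient sensing. Replicate 1 had 1 peak with fold 31.8 at a summit 112 bp from a transcript start. Replicate 2 had 5 peaks, of which the widest measured 26436 bp with fold 23 at a summit 78 bp from a start. Both summits lay between RHBDL1 and STUB1.

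FASN, the gene of fatty acid synthase, lay whole inside chr17:82074807-82109497 (34691 bp), with fold 11 in replicate 1 and up to 14.8 in replicate 2. DGAT1, which encodes an enzyme of triglyceride synthesis, and SCRT1 lay whole inside chr8:144308187-144344656 (36470 bp), together with the end of HSF1, the heat shock transcription factor gene, and the start of SLC52A2, a riboflavin transporter gene. MICOS13, a gene of mitochondrial inner membrane architecture, and HSD11B1L lay inside chr19:5675806-5714971 (39166 bp). That region also covered 80.5% of LONP1, the mitochondrial protease gene, at its end, and 94.9% of the ribosomal protein gene RPL36.

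The highest fold of any broad peak was at GPR17, a G protein-coupled receptor gene that lies inside LIMS2. Its region (chr2:127621290-127662465, 41176 bp) reached fold 53.0 in replicate 1 and 39.5 in replicate 2, in peaks of 41176 bp and 38652 bp. It also held the end of MYO7B, an unconventional myosin gene, and 55.5% of LIMS2 up to its end. It lay 114531064 bp from the nearest chromosome end, against at most 5675805 bp for the others of the 12 longest.

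Of the 3 remaining long regions broad in both, 2 held ends of genes for subunits of Integrator, a complex that cleaves nascent transcripts. At chr1:1284307-1317378 (33072 bp) PUSL1 and ACAP3 lay whole, and the last 44.2% of INTS11, the catalytic endonuclease, was covered. Replicate 1 had fold 6.93 there and replicate 2 up to 15.0. At chr7:1453442-1485837 (32396 bp) the last 45.6% of INTS1 and the start of MICALL2 were covered, with fold 33.8 in replicate 1 and 11.1 in replicate 2. The third region, chr19:987768-1022547 (34780 bp), held GRIN3B, an NMDA receptor subunit gene, and TMEM259 whole and 75.6% of WDR18, with fold 20.5 and up to 11.3.

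The longest regions broad in 1 replicate only all belonged to replicate 1, and replicate 2 had signal in each. At PNPLA2, CRACR2B, CD151, POLR2L and TSPAN4 (chr11:815462-851867) replicate 1 had a peak of 36406 bp with fold 6.35. Replicate 2 had 8 peaks over 85.6% of it, the widest 8162 bp with fold 9.80. PNPLA2 encodes the main triglyceride lipase of adipose tissue, and CD151 and TSPAN4 encode tetraspanins.

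CACNA1H, a T-type calcium channel gene, had a replicate 1 peak of 31823 bp inside the gene (chr16:1189734-1221556, fold 7.55). Replicate 2 had 14 peaks there, none wider than 4274 bp, over 76.0% of the region. No other broad region had more replicate 2 peaks.

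The other 6 were covered by replicate 2 over 78.5% to 94.0% of their length, with widest replicate 2 peaks between 7765 bp and 9309 bp. They were chr19:1229853-1258552 at CBARP, ATP5F1D (a subunit gene of ATP synthase) and MIDN, and chr17:75612544-75638662 at SMIM5, MYO15B and the helicase gene RECQL5. Next came chr9:137011755-137037591 at ABCA2 and FUT7, a fucosyltransferase gene for selectin ligands, and chr11:66841896-66866965 at RCE1, LRFN4 and the end of PC, the pyruvate carboxylase gene. The last were chr8:144494348-144518907 at GPT, MFSD3, RECQL4 and LRRC14, and chr14:104768456-104792811 over the last 88.9% of the kinase gene AKT1 and the final 39 bp of SIVA1.

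**Figure D4:**
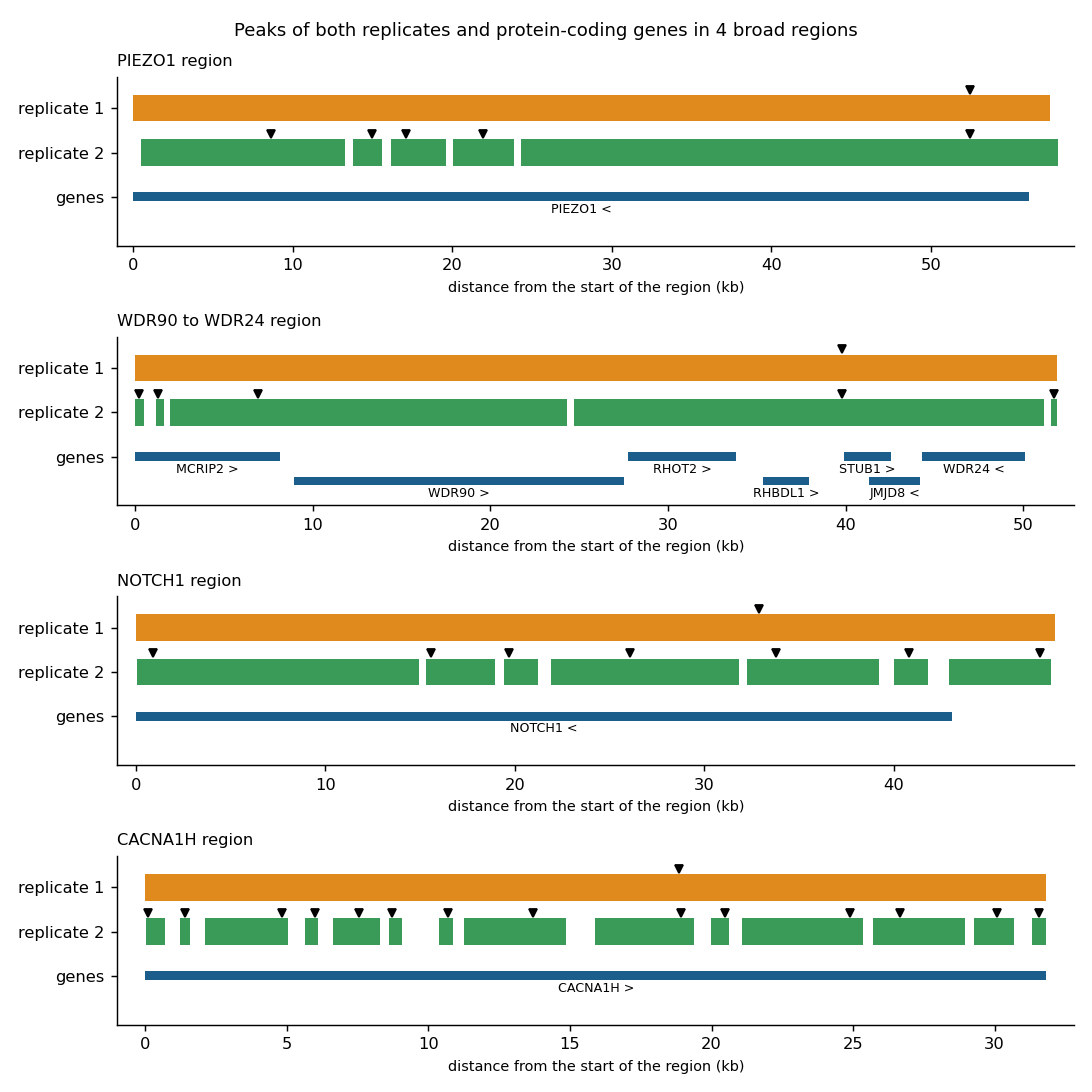
Peaks of replicate 1 and replicate 2 (bars, with black triangles at summits) and protein-coding genes (blue bars, arrow heads give the direction of transcription) in 4 broad regions, by distance from the region's start (x axis, kb); genes are drawn only inside the region. Replicate 1 shows 1 peak across each, while replicate 2 shows 5 at PIEZO1, 5 at WDR90 to WDR24, 7 at NOTCH1 and 14 at CACNA1H.

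Lists of lineage, leukemia and control genes gave counts of 0 or 1 for starts inside a broad region, beside the 1.97% of all protein-coding genes. At these list sizes such counts do not separate a list from that share. Of 20 T-lineage transcription factor genes only TCF3, which encodes the E2A proteins, started in one (chr19:1643245-1656337, 13093 bp in replicate 1, widest peak 8287 bp in replicate 2). The body of TCF3 also carried a region that was broad in both, chr19:1617096-1637882, with peaks of 20787 bp and 20757 bp. Of 24 T-ALL oncogenes and tumour suppressors, NOTCH1 was the one member. None of 20 T-cell surface and receptor signalling genes, 24 immediate early genes, 20 housekeeping genes, 69 replication-dependent histone genes or 114 homeobox genes started in a broad region. The lists were counted by starts alone. Of all regions, 197 overlapped a protein-coding gene but held no such start, so a count of 0 does not mean that gene bodies were free of broad regions.

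A peak of each replicate, of any width, covered the start of 6372 of all 20033 protein-coding genes (31.8%). The same count was 17 of the 24 immediate early genes, 12 of the 20 housekeeping genes, 53 of the 69 histone genes, 9 of the 20 T-cell surface genes and 9 of the 24 T-ALL genes. It was 4 of the 20 T-lineage factors, 2 of the 20 genes restricted to other tissues and 9 of the 114 homeobox genes. AMH, the anti-Mullerian hormone gene, was the 1 of 20 genes restricted to other tissues that started in a broad region, between SF3A2 and JSRP1 (chr19:2240086-2260313), with a widest peak of 20198 bp in replicate 1 and 11639 bp in replicate 2. SF3A2, a spliceosome gene, and JSRP1 also ended in that region.

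Broad regions were concentrated on few chromosomes. Chromosome 19 held 110 of 444 (24.8%), chromosome 16 held 85 (19.1%) and chromosome 17 held 51 (11.5%). These chromosomes together held 55.4% of broad regions, against 26.7% of all replicate 1 peaks and 30.0% of all replicate 2 peaks. None lay on chromosomes 6, 10, 13, 15, 18 or Y, although those carried 10285 peaks in replicate 1 and 6054 in replicate 2. The widest peak on chromosome 15 was 9469 bp, on chromosome 10 it was 8286 bp and on chromosome 6 it was 6364 bp, all in replicate 1.

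**Figure D5:**
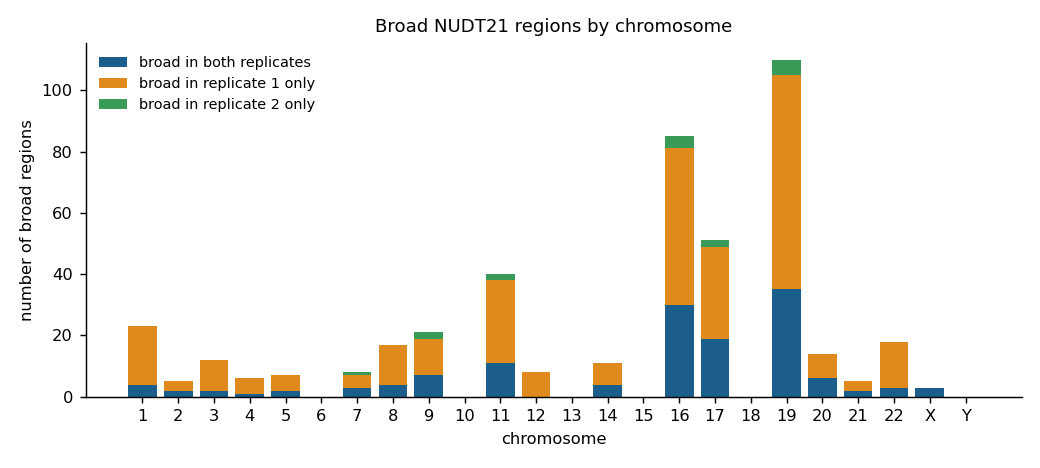
Number of broad regions (y axis) on each chromosome (x axis), stacked by whether the region was broad in both replicates, in replicate 1 only or in replicate 2 only. Chromosomes 19, 16 and 17 stand highest with 110, 85 and 51 regions, and chromosomes 6, 10, 13, 15, 18 and Y have 0.

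Within chromosomes they gathered near the ends and near each other. Of the 444 regions, 302 lay within 5 Mb of a chromosome end, windows that make up 7.77% of the genome. Counted by summits, 69.1% of broad peaks of replicate 1 and 67.7% of replicate 2 lay in these windows, against 24.2% and 26.6% of all peaks. Among peaks of 5 to 10 kb the share was already 51.3% and 58.6%. The first 5 Mb of chromosome 19 held 60 regions that covered 18.2% of it, and the first 5 Mb of chromosome 16 held 44 that covered 16.1%. Another broad region lay within 100 kb of 338 regions (76.1%), and the median gap to the nearest was 19.5 kb. Such neighbours may be pieces of one longer stretch, so the regions are not independent of each other.

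The sequence of broad regions was rich in GC. Median GC content was 62.1% (52.4 to 67.4), against 40.9% for the genome. By replicate it was 62.2% and 61.9% in broad peaks, against 58.1% and 57.8% over all peaks. It rose with each width class in both replicates, from 57.4% and 57.2% in peaks under 1 kb. CpG dinucleotides numbered a median of 3.81 per 100 bases, against 1.00 in the genome. Stretches of 20 bases that occurred more than once within their own region made up a median of 0.980% of it, and 14 regions exceeded 10%.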

How the data were processed

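Peaks of 2 CUT&Tag replicates were analysed. Per the submitters' processing notes and the methods of the study, the authors used fastp, Bowtie2 2.2.5 (hg38), Picard and MACS3 3.0.1, and called peaks per replicate. For every peak the deposited lists held the summit's position, its fold enrichment over background (a ratio) and its −log10 q and −log10 p. MACS options and any control library are not given in the sources used here. Read totals are not known, so depth is unknown. Fragments and control level at the summit were solved from the deposited fold and −log10 p (accepted within 0.3% of −log10 p). This solved 99.983% of replicate 1 peaks, with a pileup scale of 0.921, and 99.997% of replicate 2 peaks, with a scale of 1. The routine was tested on simulated data. Fragments were counted before the scale and control levels after it, so in replicate 1 they are in different units. Genes came from GENCODE 44 and sequence from hg38, the build of the files. Python 3.11.15, numpy 2.4.6, pandas 2.3.3, scipy 1.17.1 and matplotlib 3.10.9 were used. Named were the 12 longest regions broad in both replicates, the 8 longest broad in 1, the peaks at the width threshold, and at most 4 members of each gene list with a start inside. The regions, lists and rules were chosen with earlier results of these data known. Alternatives varied the width, the −log10 q, the joining of peaks, the annotation and the replicates. No test was made: both samples belong to 1 group.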

Additional observations from a re-analysis of the deposited data

Results flagged for a closer look

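Replicate 1 also had 8 peaks of 10 kb or more on alternate sequences of hg38, which the regions above leave out. They were singled out because replicate 2 had 0 there. Replicate 2 also had fewer broad peaks on the main chromosomes, 161 against 431, and no test of the difference was made. They were between 10369 bp and 26955 bp wide with fold between 4.51 and 16.3, and 4 of them lay on 1 alternate sequence of chromosome 8. Alternate sequences repeat parts of the main chromosomes, so these peaks need not be separate loci.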

How the results depend on the processing

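Of 63 alternative values, 36 moved by less than the spread between the replicates, or by less than 1.5 times for counts, and 27 moved more. At a minimum width of 8000 bp there were 734 broad regions, 247 broad in both, 46.9% of regions with a start, 53.3% of summits near a start, a median fold of 8.78 and GC of 61.7%. At 15000 bp these were 166, 31, 63.9%, 62.4%, 11 and 63%, and 203 genes started inside. Joining peaks across gaps of 500 bp gave 835 regions, 303 broad in both and 777 genes. Leaving out each replicate in turn gave 161 to 431 regions, 87.8% to 90.6% of bases over gene bodies, 47.2% to 52.4% of regions with a start, 125 to 381 genes and 0.598 to 0.750 starts per end. It gave no value for regions broad in both or for coverage by the other replicate. The gene body share was 84.5% for protein-coding genes only and 97.8% with 3000 bp either side. Any transcript start was held by 94.6% of regions. Summits lay within 3000 bp of a start in 80.1%, within 1000 bp of a protein-coding gene start in 24.5%, and near a start in 58.9% without chromosomes 16 and 19. A −log10 q of at least 5 removed no broad peak, so its values other than coverage by the other replicate could not move. Summit and fold values were means of the 2 replicates, so leaving 1 out could not move them beyond the spread. The values without those chromosomes and all alternatives for starts per end were added after seeing the data. No paired analysis was possible because the 2 replicates formed 1 group. Unknown read totals, 2 replicates of 1 line and the absence of a control sample among those analysed limit all values.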

Other observations

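The genes and regions of this section were chosen after their values were seen. Noncoding RNA genes lay inside broad regions in unequal shares, beside 1.97% of protein-coding genes. Of annotated miRNA genes 66 of 1879 started in one (3.51%), of rRNA genes 9 of 47 (19.1%), of snoRNA genes 10 of 942 (1.06%), of snRNA genes 1 of 1901 (0.0526%) and of lncRNA genes 194 of 18866 (1.03%). The rRNA share rests largely on a single region, the 5S rRNA cluster described below, which held 9 annotated transcript starts. Many small RNA genes sit inside host genes, so a shared region does not mark the small RNA itself. The cluster of MIR23A, MIR27A and MIR24-2 lay in a region with no protein-coding gene (chr19:13832992-13845487), with a replicate 1 peak of 12496 bp (fold 13.2) and 6 replicate 2 peaks, the widest 2923 bp. MIRLET7B and MIRLET7A3, members of the let-7 family, lay in another (chr22:46101886-46119825), with a replicate 1 peak of 17940 bp (fold 3.81) and 5 replicate 2 peaks, the widest 5644 bp. Neither reached 10 kb in replicate 2.

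A further region without a protein-coding gene was the 5S rRNA cluster (chr1:228627260-228647989, 20730 bp), where RNA polymerase III makes the 5S rRNA. This region was broad in replicate 1 only, and replicate 2 had 9 peaks there, the widest 4033 bp. Of its 20-base stretches, 93.6% occurred more than once within the region. The recovered summit held 271 fragments over a control level of 43.0 in replicate 1, and 119 over 24.5 in replicate 2. In replicate 1 the fragments were counted before the pileup scale of 0.921 and the control level after it. Fold was only 5.70 and 4.70, and the part of repeated sequence in this peak was not tested.

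Some genes carried more than 1 broad region. Of 727 protein-coding genes that a broad region overlapped, 96 were overlapped by at least 2 and 8 by 3. The latter were DOT1L, SBNO2, CBFA2T3, ZFPM1, CTBP1, BRSK2, RNF123 and a gene known only by its identifier. DOT1L, the histone H3 methyltransferase gene of elongating chromatin, was covered over 65.3% of its length and CTBP1, a transcriptional co-repressor gene, over 73.0%. CBFA2T3, a co-repressor gene rearranged in some leukemias, was covered over 39.5%.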
